A study of Mus musculus with 7 samples.

Results

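Decorin, biglycan, asporin, lumican, fibromodulin, PRELP, osteoglycin, versican, aggrecan and perlecan are proteins of the artery wall matrix that are grouped as proteoglycans, although asporin lacks the site for a glycosaminoglycan chain. Their 10 genes (Dcn, Bgn, Aspn, Lum, Fmod, Prelp, Ogn, Vcan, Acan and Hspg2) were followed across 7 Affymetrix mouse expression arrays of carotid artery RNA. Every probe set annotated to exactly 1 of these symbols was taken, which gave 29 of the 34958 probe sets with a single gene symbol, and 10 of 18194 genes. Of the 29 probe sets, 24 passed the filter on dim signals (mean signal above 23.6), and the 5 that did not all belonged to Vcan. One group held 4 arrays from ApoE-/+ offspring of a hypercholesterolemic ApoE-/- mother and a wt father (ApoE-null mother), and the other held 3 arrays from ApoE-/+ offspring of a normocholesterolemic wt mother and an ApoE-/- father (wild-type mother). All offspring thus carried the same Apoe genotype, and the question was what a hypercholesterolemic mother changes in the arteries of her young. The father's genotype changed along with the mother's, so maternal and paternal effects cannot be told apart. The sources used here do not give strain, age, sex or litter, nor whether the arrays are of separate animals, so the p-values measure only the spread between these arrays.

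A proteoglycan is a core protein that carries glycosaminoglycan chains, long sulphated sugar polymers. The small leucine-rich proteoglycans bind collagen fibrils and set their spacing and width, the large aggregating proteoglycans versican and aggrecan bind hyaluronan and hold water, and perlecan sits in basement membranes. In atherosclerosis, the negatively charged chains of arterial proteoglycans bind lipoproteins that carry apolipoprotein B and hold them in the intima, which is known as the retention of low density lipoprotein.

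The arrays carried the RNA of smooth muscle and fibroblasts, along with that of fat and other neighbouring tissues. The smooth muscle genes Acta2 and Myh11 and the fibroblast genes Pdgfra and Dpt exceeded the highest of 27 probe sets for bacterial transcripts, used here as a background level of at most 22.0, on every array. Summed signals of the 8 smooth muscle markers were 31666 to 39217 with an ApoE-null mother and 30042 to 37910 with a wild-type mother, and those of the 6 measured fibroblast markers were 10473 to 14624 with an ApoE-null mother and 11355 to 13842 with a wild-type mother. Cartilage, which makes aggrecan, lumican and PRELP, showed little: 9 of its 12 markers lay below the filter, Col2a1, Col9a2 and Col9a3 lay at or below the bacterial level on all arrays, and Comp, which arteries also make, carried most of the list's summed signal. The array of wild-type mother 2 stood apart. Its 7 skeletal muscle markers summed to 2241, against 128.8 to 238.4 on the other arrays, its Xist signal was 41.2 against 5174 to 5931, and its Gapdh signal at the 3 prime end over that at the 5 prime end, which reads RNA integrity, was 7.80 against 5.03 to 6.56. Markers of neighbouring tissues varied between arrays, and none passed the test. The summed signals of 5 measured thymocyte markers were 366.3 to 636.9 with an ApoE-null mother, against 45.7 to 137.1 with a wild-type mother. Those of 5 adipocyte markers were 17390 to 24543 with an ApoE-null mother, against 7939 to 22314 with a wild-type mother. Those of 3 Schwann cell markers were 535.6 to 2329 with an ApoE-null mother, against 1300 to 4510 with a wild-type mother. Of these 3 lists, only the thymocyte sums did not overlap. Among single genes, 1 adipocyte marker did not overlap, Ucp1, at 3147 to 5060 with an ApoE-null mother, against 420.1 to 2297 with a wild-type mother. The same held for 1 Schwann cell marker, Cnp, at 428.6 to 822.6 with an ApoE-null mother, against 909.2 to 2060.5 with a wild-type mother. All 5 measured thymocyte markers also did not overlap, each higher with an ApoE-null mother. The fibroblast marker Mfap5 did not either, at 1548 to 1948 with an ApoE-null mother, against 2057 to 2832 with a wild-type mother. The glomus and ganglion marker Uchl1 and the epithelial marker Foxn1 were also lower with an ApoE-null mother without overlap. Over all genes, 8.58% did not overlap in either direction. The 7 glomus and ganglion markers summed to 423.9 to 1323 with an ApoE-null mother, against 387.8 to 3939 with a wild-type mother, with the highest sum on wild-type mother 1. Their part in the values below was not tested. In such bulk RNA, fewer cells of a type and less RNA per cell cannot be told apart.

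None of the 10 genes passed the test for a difference between the crosses. In limma, fitted over all 27027 kept probe sets with Benjamini-Hochberg adjustment, 0 of the 24 tested probe sets passed an adjusted p of 0.05 (adjusted p = 0.598 to 0.981), where 0.0037% of all kept probe sets passed. At an unadjusted p under 0.05 there were 2 of 24, both higher with an ApoE-null mother, where 8.25% of all kept probe sets passed in either direction and 4.3% in that direction. The 2 groups did not overlap for 1 of the 24, higher with an ApoE-null mother, where 8.02% of all kept probe sets did not overlap in either direction and 4.01% in that direction. Log2 fold changes, positive where the ApoE-null mother group was higher and taken on the log2(signal + 2) scale, were -0.36 to 0.36, with 12 positive and 12 negative. With each gene represented by its strongest kept probe set, 7 genes were positive and 3 negative. Their median log2 fold change was 0.070, against -0.0081 over all 12713 genes, and the median size of the change without its sign was 0.11, against 0.18. For 23 of the 24 probe sets the 95% interval lay inside a 2-fold difference in both directions. These intervals too measure only the spread between these arrays.

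**Figure D1:**
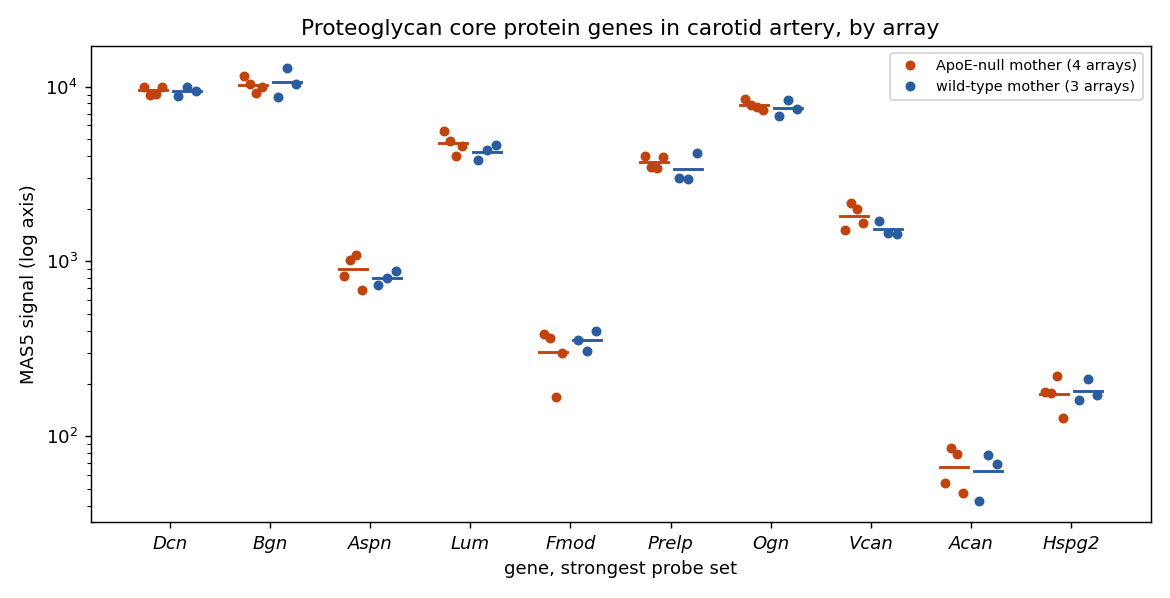
MAS5 signal (log axis) of the strongest probe set of each of the 10 genes, with 1 point per array and a line at the group mean, ApoE-null mother (4 arrays) left of wild-type mother (3 arrays). The groups overlap for all 10 genes, and the Fmod signal of 168.6 on ApoE-null mother 3 is the lowest of its gene. Signals of different probe sets are not comparable as amounts.

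**Figure D2:**
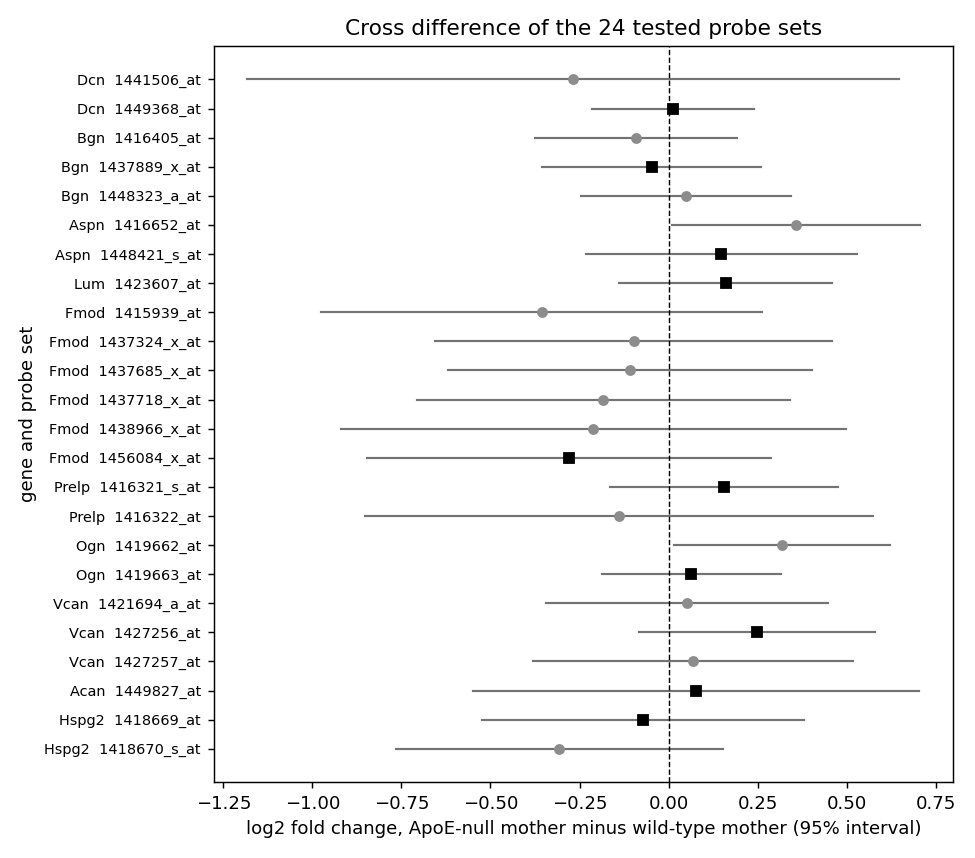
Log2 fold change of the 24 tested probe sets (ApoE-null mother over wild-type mother), with 95% intervals from limma. Black squares mark the strongest probe set of a gene and grey circles its other probe sets. Only 1 probe set of Aspn and 1 of Ogn have an interval above 0, and neither passed after adjustment.

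Decorin and biglycan are closely related small leucine-rich proteoglycans that carry chondroitin or dermatan sulphate chains and bind both fibrillar collagen and transforming growth factor beta. Dcn, at chromosome 10, 97479500 to 97518163 (all positions GRCm38.p6), was the steadiest of the 10 genes between arrays, with a coefficient of variation of 5.15%. Its signals were 9983.3, 9002.5, 9117.7 and 9904.9 with an ApoE-null mother, against 8860.0, 9981.0 and 9437.4 with a wild-type mother. The groups overlapped almost fully, with an ApoE-null mother mean of 9502 ± 514 (SD, n = 4), against a wild-type mother mean of 9426 ± 561 (SD, n = 3). The log2 fold change was 0.012 (standard error 0.10; limma, adjusted p = 0.981), and its interval corresponded to 0.861-fold to 1.18-fold. A further Dcn probe set was dim and scattered, at 65.5 to 192.5 with an ApoE-null mother and 66.4 to 225.5 with a wild-type mother, with a log2 fold change of -0.27 and an interval of -1.18 to 0.65.

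Bgn lies on the X chromosome, at 73483601 to 73495936, and was measured by 3 probe sets. The strongest, which carries a suffix for probes that may also match other transcripts, had signals of 11457.0, 10311.8, 9156.6 and 9984.6 with an ApoE-null mother, against 8755.5, 12834.5 and 10402.9 with a wild-type mother. The wild-type mother arrays held both the lowest and the highest value. The log2 fold change was -0.047 (standard error 0.14; limma, adjusted p = 0.947), and the other 2 probe sets gave -0.092 and 0.048. All 3 were lowest on wild-type mother 1, and 2 of 3 were highest on wild-type mother 2, the array with low Xist and high skeletal muscle signals. Without that array the 3 probe sets had log2 fold changes of 0.030 to 0.15, and without wild-type mother 1 of -0.22 to -0.094.

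Asporin resembles decorin but carries a run of aspartate. It binds collagen and restrains transforming growth factor beta. Its gene lies at chromosome 13, 49544443 to 49567565. One of its 2 probe sets had signals of 444.2, 524.5, 597.7 and 544.5 with an ApoE-null mother, against 448.3, 352.9 and 433.2 with a wild-type mother. Of the ApoE-null mother arrays, 3 lay above every wild-type mother array, and the groups overlapped only through ApoE-null mother 1 and wild-type mother 1. The log2 fold change was 0.36 with an interval of 0.0098 to 0.70 and an unadjusted p of 0.0448 (limma, adjusted p = 0.601). The stronger Aspn probe set, at 687.6 to 1081 with an ApoE-null mother and 733.0 to 881.4 with a wild-type mother, gave 0.15 with an interval of -0.23 to 0.53 (limma, adjusted p = 0.841). This stronger probe set carries the suffix for possible matches to other transcripts, and the first does not. When single arrays were left out the first probe set stayed at 0.25 to 0.44 and the stronger at 0.054 to 0.27.

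Lumican, fibromodulin and PRELP form the keratan sulphate branch of the small leucine-rich family, of which lumican and fibromodulin regulate the width of collagen fibrils and PRELP links collagen to heparan sulphate chains. Lum, next to Dcn at chromosome 10, 97565501 to 97572703, had signals of 5542.8, 4896.3, 3980.0 and 4596.9 with an ApoE-null mother, against 3779.0, 4319.6 and 4620.5 with a wild-type mother. The 2 highest values were both with an ApoE-null mother and the lowest with a wild-type mother, but the ranges overlapped. Its log2 fold change was 0.16 (standard error 0.14; limma, adjusted p = 0.772). Prelp, at chromosome 1, 133910304 to 133930102, had 4014.5, 3481.3, 3434.2 and 3951.3 with an ApoE-null mother, against 2998.0, 2945.7 and 4184.4 with a wild-type mother. These values come from a probe set with the suffix for possible matches to other transcripts. The array of wild-type mother 3 was the highest of the 7, while the other wild-type mother arrays were the lowest. Without it the log2 fold change was 0.32, and with all arrays it was 0.16 (limma, adjusted p = 0.795). A dimmer Prelp probe set, at 117.8 to 329.6 with an ApoE-null mother and 175.7 to 271.2 with a wild-type mother, gave -0.14, so the Prelp probe sets differed in sign within wide intervals.

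Fmod, next to Prelp at chromosome 1, 134037254 to 134048280, was the member with the most probe sets in one direction: all 6 had negative log2 fold changes, from -0.36 to -0.098, and none passed (limma, adjusted p = 0.753 to 0.939). The probe sets read the same transcript and are not independent, and 5 of them carry the suffix for possible matches to other transcripts. The strongest had signals of 383.3, 362.2, 168.6 and 300.5 with an ApoE-null mother, against 352.6, 308.2 and 401.6 with a wild-type mother. The low value was that of ApoE-null mother 3, which was the lowest array for 5 of the 6 Fmod probe sets, while ApoE-null mother 4 was lowest for 1. On ApoE-null mother 3 the fibroblast marker score, the mean log2 deviation of the 6 genes, was also the lowest, at -0.32 against -0.13 to 0.37 on the other arrays. The tendon and adipocyte scores were the highest there, at 0.77 and 0.56. Other members were not low on this array, with deviations of 0.34 for Aspn and 0.24 for Vcan. The part of these scores in the Fmod value was not tested. Without ApoE-null mother 3 the log2 fold change of the strongest probe set was -0.022, against -0.28 with all arrays. Without the same array, 2 of the dimmer probe sets were at 0.058 and 0.0045.

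**Figure D3:**
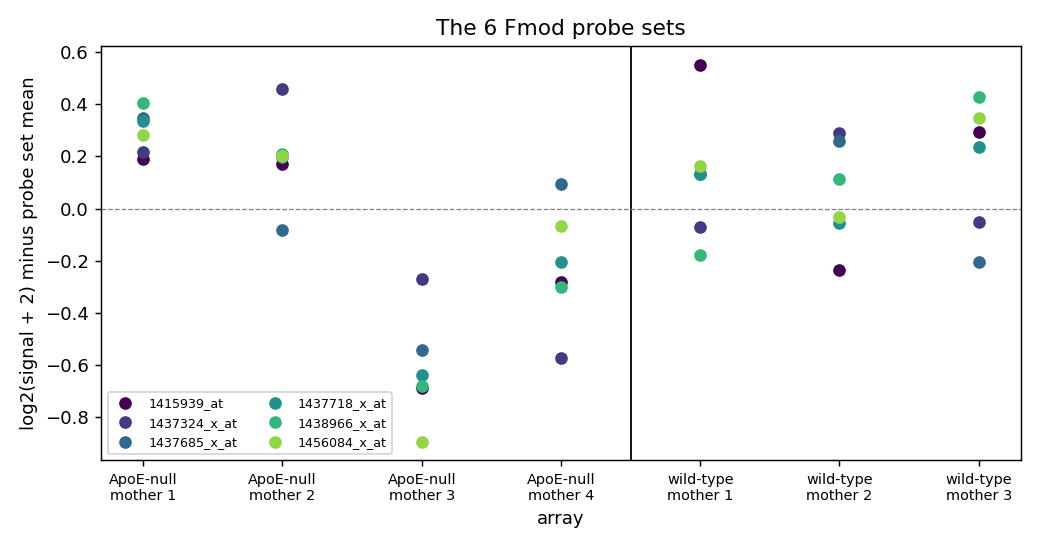
Deviation of each array from the mean of its probe set, on the log2(signal + 2) scale, for the 6 Fmod probe sets, with ApoE-null mother arrays left of the vertical line and wild-type mother arrays right of it. The points of ApoE-null mother 3 all lie below 0, and 5 of the 6 probe sets have their lowest value there.

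Osteoglycin, also called mimecan, is a small leucine-rich protein of the adventitia and the media. Ogn lies at chromosome 13, 49608015 to 49624501, and its 2 probe sets did not give the same picture. The stronger had 8541.1, 7824.3, 7631.0 and 7318.0 with an ApoE-null mother, against 6739.5, 8341.4 and 7438.8 with a wild-type mother, a log2 fold change of 0.064 with overlapping groups (limma, adjusted p = 0.903). The other had 3178.2, 2357.5, 2954.3 and 2509.1 with an ApoE-null mother, against 2269.4, 2006.4 and 2308.2 with a wild-type mother. Here all 4 ApoE-null mother arrays lay above all 3 wild-type mother arrays, the nearest at 2357.5 and 2308.2. Its log2 fold change was 0.32 with an interval of 0.014 to 0.62 and an unadjusted p of 0.0416 (limma, adjusted p = 0.598), and leaving out any 1 array gave 0.24 to 0.39.

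Aspn and Ogn flank Omd, the gene of osteomodulin, on chromosome 13, and their 0.36 and 0.32 were the highest log2 fold changes among the members' probe sets. Both came from the weaker probe set of the gene, and the strongest gave 0.15 for Aspn and 0.064 for Ogn. Omd, a keratan sulphate carrier of the same family and not one of the 10 genes, had signals of 801.7, 626.0, 767.2 and 578.9 with an ApoE-null mother, against 467.7, 406.8 and 528.6 with a wild-type mother. The groups did not overlap, and the log2 fold change was 0.56 (standard error 0.17; limma, adjusted p = 0.485). Ecm2, on the other side of Aspn, was at 208.5 to 312.3 with an ApoE-null mother and 204.2 to 343.6 with a wild-type mother, a log2 fold change of -0.047. The promoter windows of the 3 neighbours with positive values are shown with that of Fmod, whose 6 probe sets were all negative. They run from 250 bases before to 50 after the start of each gene, from RefSeq on GRCm38.p6, on the plus strand, with matches to TATAAA and to CAGAC, the short motif bound by SMAD proteins, in capitals on either strand.
Aspn, chr13:49544193-49544492: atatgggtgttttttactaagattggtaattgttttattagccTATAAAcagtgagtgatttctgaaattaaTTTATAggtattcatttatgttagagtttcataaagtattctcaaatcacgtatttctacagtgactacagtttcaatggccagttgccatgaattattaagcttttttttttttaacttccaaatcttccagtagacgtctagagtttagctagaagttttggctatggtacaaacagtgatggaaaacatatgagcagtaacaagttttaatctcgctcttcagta
Omd, chr13:49582212-49582511: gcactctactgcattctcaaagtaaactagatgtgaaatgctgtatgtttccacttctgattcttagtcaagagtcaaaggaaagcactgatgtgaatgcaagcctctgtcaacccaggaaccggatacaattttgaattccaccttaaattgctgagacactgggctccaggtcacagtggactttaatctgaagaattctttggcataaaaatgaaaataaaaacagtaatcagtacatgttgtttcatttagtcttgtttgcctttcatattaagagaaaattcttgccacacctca
Ogn, chr13:49607765-49608064: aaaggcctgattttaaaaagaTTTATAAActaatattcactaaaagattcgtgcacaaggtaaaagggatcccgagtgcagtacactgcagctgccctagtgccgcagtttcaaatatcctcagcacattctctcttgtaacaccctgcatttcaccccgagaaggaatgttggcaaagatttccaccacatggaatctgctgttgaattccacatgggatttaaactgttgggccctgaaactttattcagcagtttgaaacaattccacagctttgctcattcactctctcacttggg
Fmod, chr1:134037004-134037303: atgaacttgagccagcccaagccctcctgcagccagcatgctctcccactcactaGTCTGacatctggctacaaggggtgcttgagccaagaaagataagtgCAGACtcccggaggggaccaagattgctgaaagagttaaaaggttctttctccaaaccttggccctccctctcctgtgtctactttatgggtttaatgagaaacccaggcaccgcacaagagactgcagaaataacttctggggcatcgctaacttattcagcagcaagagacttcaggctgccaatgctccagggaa
Promoter entries matched 8 of the 10 genes, Dcn and Lum having none. TATAAA had 2 matches in the Aspn window and 2 in that of Ogn, which overlap each other, and none in that of Omd, against 13.6% of all 32851 promoter windows with at least 1. CAGAC had 2 matches in the Fmod window and 3 in that of its neighbour Prelp, against 49.6% of all windows with at least 1. The bases of the Aspn, Omd and Ogn windows were 31.0%, 37.7% and 42.3% G or C, against 51.0% for Fmod. These matches are descriptions of the letters only.

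Versican and aggrecan are large chondroitin sulphate proteoglycans that form aggregates with hyaluronan. Vcan, at chromosome 13, 89655309 to 89743027, is the main one of arterial smooth muscle. Its strongest probe set had 1508.8, 2146.3, 1981.0 and 1668.0 with an ApoE-null mother, against 1699.1, 1451.0 and 1428.5 with a wild-type mother. The 2 highest arrays were ApoE-null mother 2 and ApoE-null mother 3, and the other ApoE-null mother arrays lay inside the wild-type mother range. The log2 fold change was 0.25 (standard error 0.15), the highest among the strongest probe sets of the 10 genes (limma, adjusted p = 0.684), with an interval of -0.082 to 0.58. Another 2 tested Vcan probe sets gave 0.052 and 0.068, at 201.1 to 272.3 and 104.6 to 152.0 with an ApoE-null mother, against 189.5 to 258.7 and 91.4 to 130.1 with a wild-type mother. The 5 Vcan probe sets under the filter had signals of 0.7 to 20.8, of which 2 lay at or below the bacterial level on all 7 arrays and the others exceeded it on at most 4.

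Acan, the aggrecan gene at chromosome 7, 79053226 to 79115099, was dim but exceeded the bacterial level on all 7 arrays. It had 54.1, 85.8, 79.5 and 47.6 with an ApoE-null mother, against 42.8, 77.9 and 69.0 with a wild-type mother. Both groups spanned nearly the same range, and the log2 fold change was 0.077 with an interval of -0.55 to 0.70 (limma, adjusted p = 0.957). Leaving out wild-type mother 1 gave -0.17, and leaving out wild-type mother 2 gave 0.24.

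Perlecan, encoded by Hspg2 at chromosome 4, 137468751 to 137570630, is the heparan sulphate proteoglycan of basement membranes and restrains smooth muscle growth. The stronger of its 2 probe sets had 178.7, 175.8, 219.5 and 126.5 with an ApoE-null mother, against 161.6, 213.3 and 171.5 with a wild-type mother. The lowest and the highest array were both in the ApoE-null mother group, and the log2 fold change was -0.072 (limma, adjusted p = 0.945). The other probe set, with the suffix for possible matches to other transcripts, had 87.6 to 128.1 with an ApoE-null mother and 104.3 to 162.5 with a wild-type mother. Its log2 fold change was -0.31 with an interval of -0.77 to 0.15 (limma, adjusted p = 0.722). It was -0.14 without wild-type mother 3, which held the value of 162.5.

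Coefficients of variation over the 7 arrays were 5.15% to 26.1% for the strongest probe sets, the highest being that of Acan. On wild-type mother 1, 2 of the 10 genes lay above their own mean, against 7 on ApoE-null mother 1 and ApoE-null mother 2, 4 on ApoE-null mother 3, 3 on ApoE-null mother 4, 5 on wild-type mother 2 and 6 on wild-type mother 3. The median deviation was -0.20 on wild-type mother 1 and -0.059 to 0.11 on the other 6 arrays. Wild-type mother 1 also had the highest glomus and ganglion sum, 3939 against 387.8 to 1544 on the others. Its smooth muscle sum was the lowest, 30042 against 31666 to 39217 on the others. The part of either in the members' values was not tested. Without that array the median log2 fold change of the 10 genes was -0.022. Over the 8057 other genes with a signal above the median of kept probe sets, the 5 whose deviations were most like the mean deviation of the members over the 7 arrays were Polh, Rap2b, Lztr1, Nwd1 and Pawr, with Pearson correlations of 0.948 to 0.972. This is a description over 7 points that share the scaling and RNA quality of each array.

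**Figure D4:**
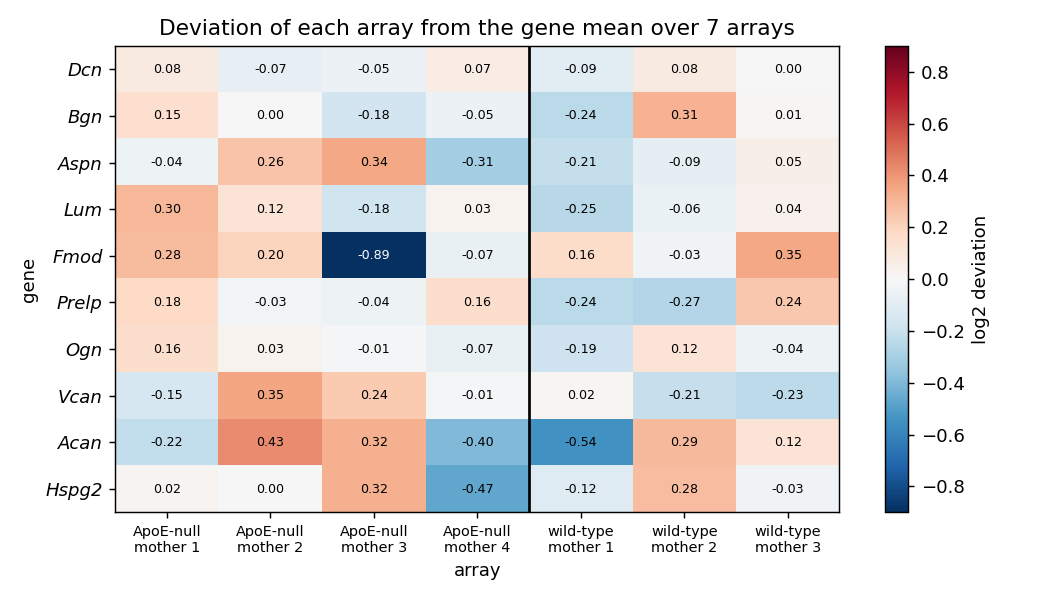
Log2 deviation of each array (columns) from the mean over 7 arrays of each gene (rows), ApoE-null mother arrays left of the vertical line. The value of -0.89 for Fmod on ApoE-null mother 3 stands lowest, and 8 of the 10 genes are below 0 on wild-type mother 1.

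Genes that build, supply and remove proteoglycan chains were listed to set the members in their pathway. Of 135 genes in 8 lists, 107 were measured, and 0 passed in either direction (limma, lowest adjusted p = 0.459), where 0.00787% of all genes did. At an unadjusted p under 0.05, 5 were higher and 10 lower, where 8.65% of all genes passed in either direction, and groups did not overlap for 16, against 8.58% of all genes. The list medians ran from -0.13 for chondroitin and dermatan sulphate synthesis to 0.14 for cleavage and degradation, beside -0.0081 over all genes.

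Of the 10 genes with lower signal at an unadjusted p under 0.05, 5 lay in the list of other core proteins, 2 in sulphate supply, 2 in heparan sulphate synthesis and 1 in chondroitin and dermatan sulphate synthesis, lists with 19, 12, 13 and 18 measured genes. Papss1 and Papss2 make the sulphate donor used on every chain. Papss1 had 747.7, 717.5, 628.8 and 774.1 with an ApoE-null mother, against 970.3, 1070.9 and 920.0 with a wild-type mother, without overlap, and a log2 fold change of -0.46 (limma, adjusted p = 0.485). Papss2 had 610.1 to 755.3 with an ApoE-null mother, against 761.5 to 1035.5 with a wild-type mother, also without overlap, and -0.40 (limma, adjusted p = 0.566). Ext1, a polymerase of heparan sulphate, and Extl3, which starts that chain, had log2 fold changes of -0.45 and -0.43 without overlap (limma, adjusted p = 0.523 and 0.538). Chpf and Chsy1, which extend chondroitin chains, were at -0.39 and -0.22, while Csgalnact2, which starts them, was at 0.35, all 3 without overlap and none passing (limma, adjusted p = 0.604 to 0.646). Of the genes with the highest signals in these lists, the sulphatases Sulf1 and Sulf2 were at 0.044 and -0.31, and Bpnt2 and Ugdh, which clear a by-product of sulphation and make a chain precursor, at 0.19 and 0.069.

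Among genes that remove proteoglycans, Adamts5, a protease that cuts versican and aggrecan, had 587.4, 689.5, 756.1 and 636.1 with an ApoE-null mother, against 496.7, 405.3 and 436.4 with a wild-type mother. All 4 lay above all 3, and the log2 fold change of 0.58 had the smallest p of the 107 genes (unadjusted p = 0.00237, and adjusted p = 0.459 in limma). Gusb, a lysosomal enzyme of chain degradation, was at 0.35 (limma, adjusted p = 0.584), and Hexa and Ids, with the highest signals of the list, at -0.091 and 0.12. Of the 19 measured other core proteins, 2 were higher and 5 lower at an unadjusted p under 0.05. The pericyte proteoglycan gene Cspg4 was at -0.44 and Bcan, a hyaluronan-binding relative of Acan, at 0.81 by a probe set with possible other matches (limma, adjusted p = 0.523 and 0.480), and Col18a1 and Tgfbr3 at -0.35 and 0.24. The other lower ones were named after their values were seen. They were the syndecan genes Sdc1, Sdc3 and Sdc4, at -0.32, -0.49 and -0.37, and the glypican gene Gpc1, at -0.59. All are cell surface heparan sulphate carriers, and the groups overlapped for all but Sdc1 (limma, adjusted p = 0.566 to 0.605). The other measured syndecan and glypican genes were Sdc2 at 0.30, Gpc3 at 0.16, Gpc6 at 0.033 and Gpc4 at -0.10. The syndecan and glypican genes thus did not share a direction. Epyc, a cartilage member of the small leucine-rich family, was at 0.47 and, without ApoE-null mother 3, at 0.19, and Kera, the neighbour of Lum, lay at or below the bacterial level on all arrays. The hyaluronan receptor gene Cd44 was at 0.051, Cemip2 at -0.12, Has1 at 0.69 and Hapln3 at -0.73, the last 2 with signals of at most 73.6 and each at or below the bacterial level on 1 array. Single arrays moved these values: leaving out wild-type mother 2 set Has1 at 0.19 and leaving out wild-type mother 1 set it at 1.14, and Hapln3 was at -0.31 without ApoE-null mother 2. Leaving out wild-type mother 2 or wild-type mother 3 set Cd44 at -0.11 or 0.17, and Cemip2 at -0.36 or 0.11. The collagen genes Col1a2 and Col3a1, whose fibrils bear the small leucine-rich proteins, were at -0.11 and -0.091, and Tgfb2 and Tlr4 at -0.39 and 0.18.

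**Figure D5:**
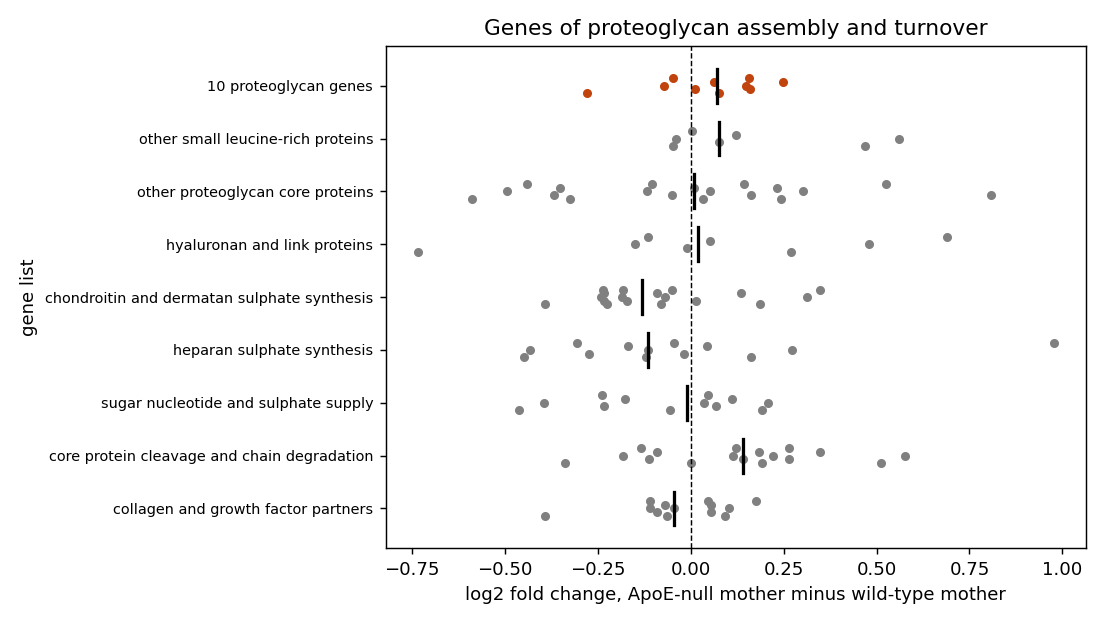
Log2 fold change (ApoE-null mother over wild-type mother) of each measured gene in the 10 proteoglycan genes (orange, top) and in 8 lists of related genes (grey), with 1 point per gene and a black line at the list median. No point passed the test, and the medians lie between -0.13 and 0.14.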

How the data were processed

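RNA of 7 carotid artery samples had been amplified from an oligo-dT primer before hybridisation, per the labels' protocols, which favours the 3 prime end of transcripts. The authors deposited MAS5 signals, an intensity on a linear scale, for which the submitters' processing notes name MAS5 and GCOS without versions. The 2% trimmed mean was 200.0 on every array, so no further scaling was applied.

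Of 45101 probe sets, 34958 were annotated to 1 symbol, 932 to several and 9211 to none; 0 symbols changed against a GRCm38.p6 gene table. After removal of 64 control probe sets, the 27027 above the 40th percentile of mean signal (23.6) were tested as log2(signal + 2), which understates changes of dim probe sets. limma 3.58.1 (R 4.3.3; lmFit, then eBayes with its trend option) compared the crosses without covariates, and p-values were adjusted by Benjamini-Hochberg over the 27027. For values per gene, the strongest tested probe set stood for the gene. The number of arrays limits precision. Identical arrays numbered 0.

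The 10 genes and all lists were chosen with earlier results of these data known. In each related list, the 2 genes with the smallest p and the 2 with the highest mean signal were named, with any past the threshold. Kera, Prg4 and the syndecan and glypican genes were named after their values were seen. Marker genes came from fixed lists, and the 5 genes most like the members by Pearson correlation were added. Alternatives were a pseudocount of 16, no filter, a filter at the 60th percentile, quantile normalization, no intensity trend, the mean over the probe sets of a gene, and leaving out each array.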

Additional observations from a re-analysis of the deposited data

Results flagged for a closer look

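Among 54 probe sets checked in the 4 arrays of the ApoE-null mother group, 2 had 1 array far from the other 3, where chance sets about 1 in 20 apart by this measure. A dim Vcan probe set had a signal of 152 on ApoE-null mother 4, against 104.6 to 108.0 on the other 3 arrays. Gusb, the gene of a lysosomal enzyme that degrades glycosaminoglycan chains, had 735.2 on the same array, against 638.5 to 650.7 on the other 3.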

How the results depend on the processing

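No call was made for the members or their pathway lists under any of the 13 alternatives. Of 129 log2 fold changes of members under the alternatives, 116 kept their sign and 13 turned, all uncalled. Dcn was at -0.13 with the mean over its probe sets, and Bgn at 0.0025 with quantile normalization. When each array was left out, Dcn was at -0.032 to 0.054, Bgn at -0.18 to 0.095, Ogn at -0.011 to 0.14, Acan at -0.17 to 0.24 and Hspg2 at -0.19 to 0.073, and the median of the 10 genes at -0.022 to 0.12, the lowest without wild-type mother 1. Over all probe sets 1 was called, against 0 without an intensity trend, 2 with quantile normalization and 0 to 18 when each array was left out, with 18 without wild-type mother 1, 4 without wild-type mother 3 and 0 without any 1 of the ApoE-null mother arrays. The cause was not tested. Quantile normalization moved the median log2 fold change of all kept probe sets by 0.0054. No paired analysis was possible because the labels match no array of one cross to an array of the other. The dim second Dcn probe set had the only interval reaching past a 2-fold difference, at -1.18 to 0.65, and 4 against 3 arrays limit what could be called.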
